A study of Homo sapiens with 12 samples.

Results

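The mRNAs of 38 genes were followed in the acute myeloid leukaemia (AML) cell line MOLM13 after inactivation of YBX1. They encode aminoacyl-tRNA synthetases and the 3 scaffold proteins that hold some of them together. The genes were chosen by symbol, and all 38 were found among the 19755 protein-coding genes of the deposited expression table. Of these, 15 whose symbol ends in ARS2 are called mitochondrial here and the other 23 cytosolic, although GARS and KARS each encode the cytosolic and the mitochondrial form of their enzyme.

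Aminoacyl-tRNA synthetases join each amino acid to its own tRNA and so supply the ribosome with its substrates. In human cells a set of the cytosolic enzymes sits in a multisynthetase complex around the scaffolds AIMP1, AIMP2 and EEF1E1, while the other cytosolic enzymes work outside it. Mitochondria translate their own mRNAs with synthetases that are encoded in the nucleus and imported, most of them by genes of their own. YBX1 is a cold-shock protein that binds RNA and DNA and was named after the Y-box, a promoter element that contains an inverted CCAAT sequence.

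All libraries came from MOLM13 cells made to express Cas9 stably under blasticidin (5 µg/ml). Cells were then transduced with the pUSEPR vector, which carries puromycin resistance and a red fluorescent protein (RFP), and were kept in puromycin at 1 µg/ml, sorted for high RFP and collected at day 7. The vector held YBX1-sgRNA1, YBX1-sgRNA2 or, in the control, no guide against YBX1. The control is named in its titles as an empty vector and elsewhere in its labels as a non-targeting guide, so that loss of YBX1 and DNA cutting as such cannot be told apart. Each of the 3 groups held 4 libraries numbered 1 to 4. The labels do not say that these came from separate cultures, and p-values therefore measure the spread between these libraries, which may be technical. Levels are given as rlog values, that is log2 normalised read counts in which weakly covered genes are drawn towards their own mean. Read depth is unknown, as the values used here carry no counts.

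YBX1 mRNA, the check of the labels, had rlog values of 12.91, 12.96, 12.76 and 12.81 in the control libraries, 11.20, 11.38, 11.08 and 11.09 with sgRNA1 and 11.93, 12.07, 11.83 and 11.89 with sgRNA2. All 8 libraries with a guide lay below all 4 control libraries, which corresponded to a fold of 0.313 with sgRNA1 and 0.526 with sgRNA2. Of 9 myeloid markers, 8 had a mean rlog value of at least 4, CD68 being the exception at -1.03. Among markers of other lineages PAX5 had a mean rlog value of 9.23, while CD3E, CD3D, EPCAM and ALB lay below 0 and MS4A1 was listed at 0. In such bulk libraries fewer cells of a type and less RNA per cell cannot be told apart.

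In libraries with a YBX1 guide most synthetase mRNAs were close to control, and glutaminyl-tRNA synthetase (QARS) stood lowest. With both guides together 0 of 38 members passed an adjusted p of 0.05 in limma, against 0.1% of the 10982 genes tested, and 3 members (QARS, EARS2 and RARS2, all lower) had an unadjusted p under 0.05, against 3.92% of all genes lower. Libraries with the same number deviated together across genes, so the comparison was also fitted with the replicate number as a block. With this block QARS and the mitochondrial glutamyl-tRNA synthetase EARS2 fell (2 of 38 members, against 5.4% of all genes in either direction and 2.87% lower). At an unadjusted p under 0.05 the blocked fit gave 13 members, all lower, against 10.7% of all genes lower and 9.35% higher. With sgRNA1 alone 0 members passed in limma (3 at an unadjusted p under 0.05, against 0.0455% and 5.5% of all genes) and 1 fell with the block, against 3.21% of all genes in either direction and 1.83% lower. With sgRNA2 alone 0 passed (2 at an unadjusted p under 0.05, against 0.0364% and 5.35%) and 3 fell with the block, against 3.95% in either direction and 1.78% lower. The cytosolic members had a median log2 fold change of -0.04 (20 of 23 below 0) and the mitochondrial members one of -0.05 (12 of 15 below 0), while the median over all genes tested was -0.01 and 53.6% of genes lay below 0. Without control library 1 and without the block the cytosolic median was 0.01. With the block it lay between -0.07 and -0.03 in 16 fits that left out 1 library or 1 number.

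**Figure D1:**
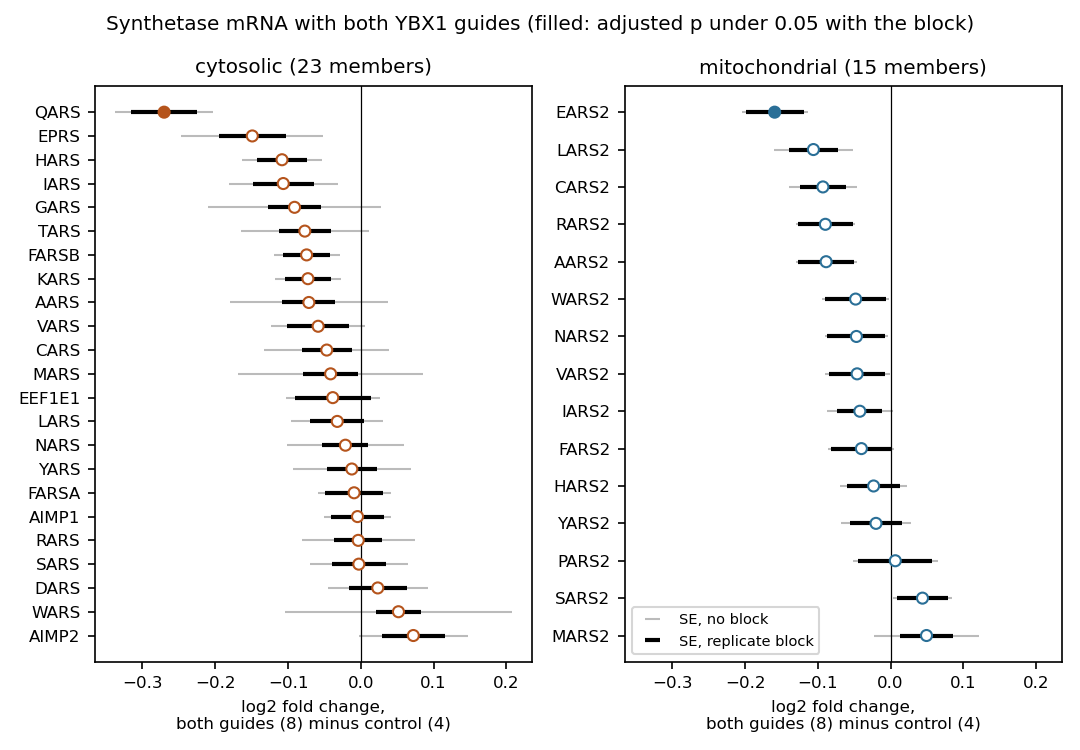
Log2 fold change of each member with both YBX1 guides (8 libraries) against control (4 libraries), cytosolic members on the left and mitochondrial members on the right. Points are limma estimates, bars are their standard errors without (grey) and with (black) the replicate block, and filled points passed an adjusted p of 0.05 with the block: QARS at -0.27 and EARS2 at -0.16.

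QARS charges cytosolic tRNA with glutamine and belongs to the multisynthetase complex. The gene lies at chr3:49095932-49105135 on the minus strand (GRCh38, GENCODE 29). Its rlog values were 11.89, 11.90, 12.11 and 12.08 in control libraries 1 to 4, 11.53, 11.78, 11.72 and 11.66 with sgRNA1 and 11.62, 11.88, 11.84 and 11.80 with sgRNA2. All 8 guide libraries lay below all 4 controls, although sgRNA2 library 2 and control library 1 were nearly level. The same pattern was seen in EARS2 but in none of the other members, and in 0.792% of all genes.

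The log2 fold change of QARS was -0.27 ± 0.07 (SE, 8 against 4 libraries; adjusted p = 0.213 in limma), that is 82.9% of the control level, and the adjusted p was 0.00223 with the block. With sgRNA1 it was -0.33 (adjusted p = 0.241 in limma, 0.000155 with the block) and with sgRNA2 -0.21 (0.812, and 0.0105 with the block). The blocked call for both guides together and for sgRNA1 was kept in each of 16 fits that left out 1 library or 1 replicate number, with a highest adjusted p of 0.0348 without number 1 and of 0.0107 without number 4, respectively. For sgRNA2 it was kept in 11 of 16, and was lost without control library 1 (0.0547), control library 3 (0.0528), sgRNA2 library 4 (0.0537), number 1 (0.0811) or number 4 (0.0703). Within libraries 1 and 2 the log2 fold change for both guides was -0.19 (adjusted p = 0.419 in limma, 0.00586 with the block), and within libraries 3 and 4 it was -0.35 (0.0227, and 0.0154 with the block).

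Since YBX1 was named after a promoter element with an inverted CCAAT sequence, the CCAAT motifs before the RefSeq start of the members that passed with both guides are shown, in capitals as ATTGG on the strand of the gene. In QARS they began 74 and 46 bases before the start (chr3:49104819-49104839 and chr3:49104791-49104811, minus strand, GRCh38.p14), in sequence that GENCODE 29 annotates as untranslated exon of longer QARS transcripts. In EARS2 the motif began 32 bases before the start (chr16:23557395-23557415, minus strand), in an untranslated exon of both EARS2 and its divergent neighbour UBFD1.
QARS, upstream: aggaccccATTGGctctcccc
QARS, downstream: tcactctcATTGGtcagcgag
EARS2: ggaggccgATTGGctggaagc
RefSeq windows of 300 bases (250 before to 50 after the start) were matched for 32 of 38 members, not for AARS2, DARS, LARS, VARS, VARS2 and YARS. CCAAT on either strand was found in 8 of 19 cytosolic and 7 of 13 mitochondrial windows, and in 34.6% of all 35116 windows. The window of EPRS, which passed with the block for sgRNA2 alone, held no CCAAT. A match describes sequence only.

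EARS2 charges mitochondrial tRNA with glutamate and lies at chr16:23522014-23557731 on the minus strand. Its rlog values were 9.34, 9.30, 9.31 and 9.37 in control libraries 1 to 4, 9.19, 9.22, 9.24 and 9.08 with sgRNA1 and 9.27, 9.18, 9.07 and 9.12 with sgRNA2. The control libraries did not overlap with those of either guide, while the 2 guides overlapped with each other, and the control libraries were the tightest group (SD 0.03, n = 4, against 0.07 and 0.08 with the guides).

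The log2 fold change of EARS2 with both guides was -0.16 ± 0.05 (SE; adjusted p = 0.293 in limma, 0.0245 with the block). With sgRNA1 it was -0.15 (adjusted p = 0.0894 with the block) and with sgRNA2 -0.17 (0.0455 with the block). The blocked call for both guides was kept in 9 of 16 fits with libraries left out, and was lost without control library 1 (0.0760), control library 3 (0.0839), control library 4 (0.0991), sgRNA1 library 1 (0.0585), sgRNA2 library 4 (0.0564), number 1 (0.115) or number 4 (0.119). The call for sgRNA2 was kept in 3 of 16, those without control library 2, sgRNA1 library 4 or sgRNA2 library 1.

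EPRS, the bifunctional enzyme that charges glutamate and proline tRNAs in the cytosol, lies at chr1:219968601-220046658 on the minus strand and had the highest mean level of all members (12.85). Its rlog values were 13.13, 13.02, 12.98 and 12.67 in control libraries 1 to 4, 12.94, 12.96, 12.82 and 12.65 with sgRNA1 and 12.99, 12.91, 12.56 and 12.60 with sgRNA2. The groups overlapped, but each of the 8 guide libraries lay below the control library of the same number. The log2 fold change was -0.19 with sgRNA2 (adjusted p = 0.985 in limma, 0.0368 with the block), so that EPRS fell in the blocked fit of that guide. With sgRNA1 it was -0.11 (0.255 with the block) and with both guides -0.15 (0.0648 with the block). The sgRNA2 call was kept in 4 of 16 fits with libraries left out: those without control library 2 (0.0384), control library 4 (0.0225), sgRNA1 library 1 (0.0446) or sgRNA2 library 1 (0.0364). Without sgRNA2 library 3 the value for that guide was -0.12 (adjusted p = 0.110 in limma with the block), and without number 3 it was -0.11 (0.233).

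**Figure D2:**
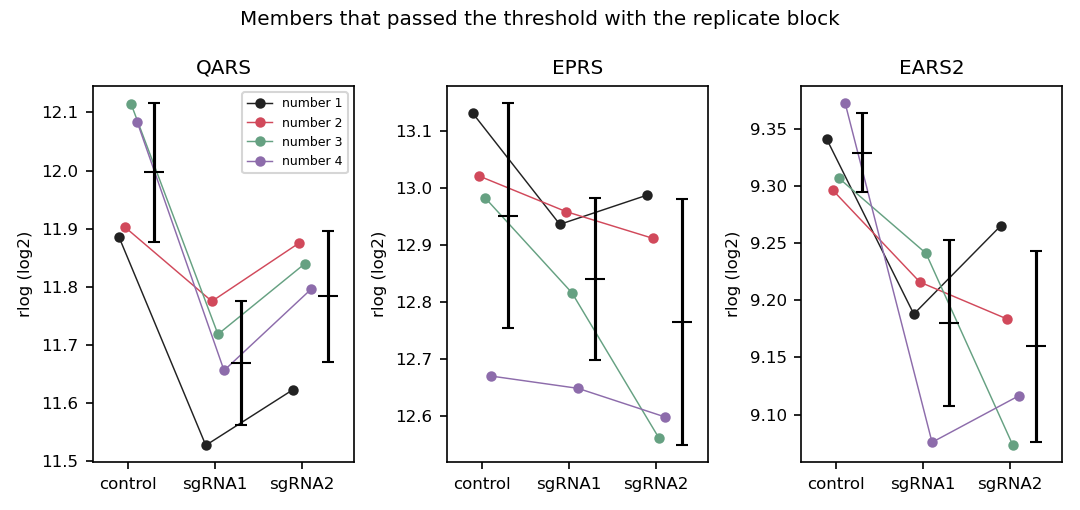
Rlog values (log2) of QARS, EPRS and EARS2 in the 4 control, 4 sgRNA1 and 4 sgRNA2 libraries, with lines joining libraries of the same number, and mean and SD of each group as black bars. QARS and EARS2 have all guide libraries below all controls, whereas EPRS has overlapping groups and lies below the same-numbered control in each guide library.

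Among the 8 enzymes of the multisynthetase complex 7 had a negative log2 fold change (median -0.06) and QARS was the member that passed with the block for both guides. Isoleucyl-tRNA synthetase (IARS) was, like QARS and EPRS, below the control of the same number in 8 of 8 guide libraries, with a log2 fold change of -0.11 and an adjusted p of 0.146 with the block. Methionyl-tRNA synthetase (MARS) had a log2 fold change of -0.04 ± 0.13 (SE), and that of aspartyl-tRNA synthetase (DARS) was 0.02 ± 0.07 (SE). Without control library 1 and without the block the MARS value was 0.08. It lay between -0.095 and -0.012 in blocked fits with libraries or numbers left out. Without number 4 in the blocked fit the DARS value was -0.02. None of the 3 scaffolds passed in limma with or without the block, and 0 of 3 had an unadjusted p under 0.05. AIMP2 gave the highest value of all members at 0.07 ± 0.07 (SE), which was 0.13 without control library 1 and 0.017 without control library 3, and AIMP1 was at -0.00, with values from -0.12 to 0.15 across the same-numbered pairs.

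Of the 12 cytosolic synthetases outside the complex 11 had negative values (median -0.05), and 0 of 12 passed in limma with or without the block. At an unadjusted p under 0.05 there were 0 without and 4 with the block, all lower, against 3.92% and 10.7% of all genes lower. Histidyl-tRNA synthetase (HARS) was the lowest at -0.11 ± 0.05 (SE; adjusted p = 0.704 in limma, 0.0685 with the block). It had rlog values of 9.69, 9.60, 9.52 and 9.58 in control libraries 1 to 4, 9.54, 9.57, 9.38 and 9.40 with sgRNA1 and 9.62, 9.58, 9.42 and 9.41 with sgRNA2, and each guide library was below the control of its number. With the block HARS passed for both guides without control library 2 (0.0497) or sgRNA2 library 3 (0.0332). Its divergent neighbour HARS2, the mitochondrial enzyme for the same amino acid, whose annotated locus overlaps that of HARS at the 5′ ends on chromosome 5, was at -0.02. Glycyl-tRNA synthetase (GARS) was at -0.09 ± 0.12 (SE) and phenylalanyl-tRNA synthetase subunit alpha (FARSA) at -0.01 ± 0.05 (SE). Without control library 1 and without the block the GARS value was 0.03. It lay between -0.13 and -0.07 in blocked fits with libraries or numbers left out. Tryptophanyl-tRNA synthetase (WARS) was the 1 member above the control of the same number in 8 of 8 guide libraries, by 0.02 to 0.12, with a log2 fold change of 0.05 and an adjusted p of 0.362 with the block. Without control library 3 and without the block it was -0.04. In blocked fits with libraries or numbers left out the WARS value lay between 0.04 and 0.06. The 8 of 8 pattern was seen in 7 members in the lower and 1 in the higher direction, against 6.25% and 4.33% of all genes.

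Among the mitochondrial enzymes 1 of 15 (EARS2) passed with the block, a share near the 5.4% of all genes. Leucyl-tRNA synthetase LARS2 (-0.11 ± 0.05, SE) and cysteinyl-tRNA synthetase CARS2 (-0.09 ± 0.05, SE) followed, with adjusted p of 0.0690 and 0.0865 in limma with the block, and both were below the same-numbered control in 8 of 8 guide libraries. The alanyl (AARS2) and arginyl (RARS2) enzymes were both at -0.09. The highest values were those of methionyl-tRNA synthetase MARS2 (0.05 ± 0.07, SE), seryl-tRNA synthetase SARS2 (0.04 ± 0.04, SE) and prolyl-tRNA synthetase PARS2 (0.01 ± 0.06, SE). SARS2 had the lowest level of all members (mean rlog 4.84), and 57% of its exon bases are shared with MRPS12 and another annotated gene. The library kit does not mark strand, so reads in shared stretches cannot be assigned to a gene with certainty. More than 10% of exon bases were shared with other genes in 8 members (AIMP1, AIMP2, EEF1E1, HARS2, MARS, SARS2, VARS2 and WARS), and in 1.3% and 6.46% in QARS and EARS2.

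The mRNA of the cytosolic enzyme was mostly the more abundant of the 2 for an amino acid, while protein was not measured here. After subtraction of log2 exon length in kilobases the mean rlog value in the control libraries was higher for the cytosolic enzyme in 13 of 15 pairs, with a median difference of 2.30. EPRS was counted in 2 of these pairs, with EARS2 and with PARS2. The widest gap was that between EPRS and PARS2 (5.39), and FARSA exceeded FARS2 by 5.21. The exceptions were the cysteine and isoleucine enzymes, as CARS was 0.60 below CARS2 and IARS 0.52 below IARS2. Exon length here merges all annotated transcripts of a gene and may differ from that of the mRNA present. Before the subtraction IARS was above IARS2 in the control libraries (11.84 to 12.14 against 11.57 to 11.77). CARS was below CARS2 before it too (9.03 to 9.41 against 9.76 to 9.92). HARS and HARS2 differed by 0.17 (SD 0.05 over the 4 control libraries), and before the subtraction were at 9.52 to 9.69 and 8.29 to 8.46. In 11 of 15 pairs both enzymes had a negative log2 fold change with both guides.

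With the 2 guides set against each other, 0 of 38 members passed between sgRNA2 and sgRNA1 in limma with or without the block (0 and 1 at an unadjusted p under 0.05), against 0.00911% of all genes at the adjusted and 0.838% at the unadjusted threshold without the block. The 1 member with an unadjusted p under 0.05 was QARS, which was 0.11 ± 0.05 (SE, with the block) higher with sgRNA2 than with sgRNA1 (adjusted p = 0.695 in limma with the block), a direction in which 3.42% of all genes had an unadjusted p under 0.05. YBX1 itself was 0.75 higher with sgRNA2 than with sgRNA1. The effect of the guides did not differ detectably between libraries 3 and 4 and libraries 1 and 2, as 0 of 38 members passed the interaction term in limma (2 at an unadjusted p under 0.05, DARS higher and VARS lower), against 0.00911% and 8.66% of all genes.

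More cytosolic members passed the test for the replicate number than passed for the guides. An F-test over the 4 numbers in limma, in a model with the group, passed an adjusted p of 0.05 in 19 of 23 cytosolic and 4 of 15 mitochondrial members, against 51.8% of all genes tested. The range of the means of the 4 numbers had a median of 0.262 in cytosolic and 0.112 in mitochondrial members and of 0.169 over all genes, whereas the range of the 3 group means had a median of 0.0687, 0.0588 and 0.0706, respectively. The number range was the larger in 34 of 38 members, a share near the 87.8% of all genes. It tends to be wider by construction, as it spans 4 means of fewer libraries each, against 3 group means. No label explains the numbers, and whether a day, a batch of cells or another step lies behind them cannot be told apart here.

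The libraries numbered 1 had high levels of cytosolic synthetase mRNA in all 3 groups. In 12 of 23 cytosolic members (IARS, LARS, MARS, RARS, AARS, CARS, GARS, NARS, SARS, TARS, WARS and YARS) and 1 of 15 mitochondrial members (LARS2) all 3 libraries numbered 1 lay above the other 9, against 7.29% of all genes. The median deviation of the cytosolic members from their own means was 0.19, 0.10 and 0.13 in control, sgRNA1 and sgRNA2 libraries numbered 1, and -0.07, -0.10 and -0.14 in those numbered 3. For the mitochondrial members it stayed between -0.04 and 0.06 in all 12 libraries, and over all genes tested between -0.01 and 0.02. By family, 7 of 8 enzymes of the complex, 1 of 3 scaffolds and 11 of 12 enzymes outside it differed by number. All 10 cytosolic class I enzymes (EPRS counted here) and 8 of 10 class II enzymes did so. Over all genes tested 51.8% differed by number in the same F-test.

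**Figure D3:**
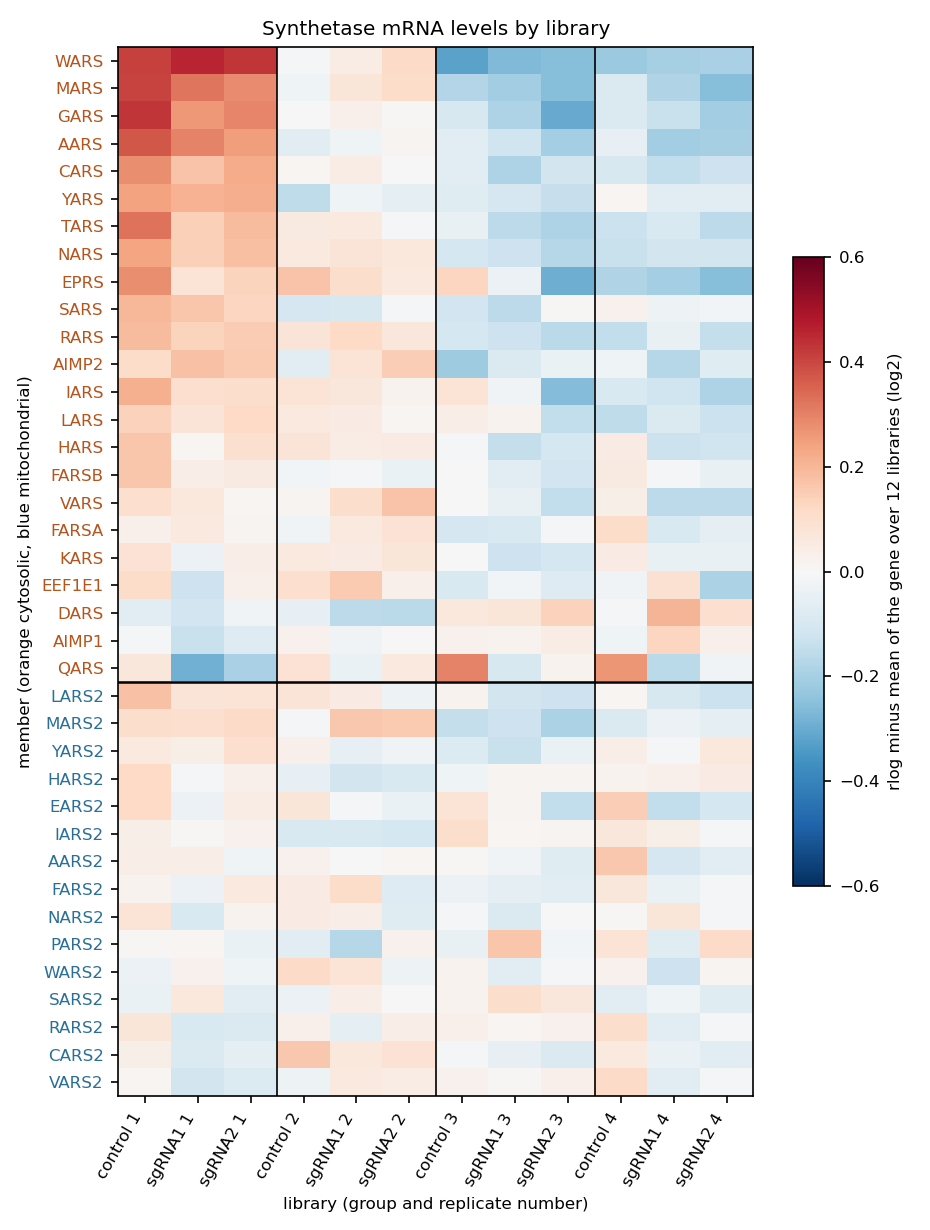
Rlog value of each member minus its mean over all 12 libraries (log2, red higher, blue lower), with libraries in columns ordered by replicate number and group and members in rows, cytosolic above and mitochondrial below. The 3 columns of number 1 are red for most cytosolic members, led by WARS, and the mitochondrial rows are paler.

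WARS showed the widest spread by number (0.71). Its rlog values were 11.20, 11.24 and 11.21 in control, sgRNA1 and sgRNA2 libraries numbered 1, 10.78, 10.83 and 10.90 in those numbered 2, 10.46, 10.52 and 10.53 in those numbered 3 and 10.56, 10.59 and 10.59 in those numbered 4. The order of the numbers was thus the same in each group, and the values of different numbers did not overlap. MARS followed with a range of 0.55, from a mean of 11.94 in number 1 to 11.39 in number 3, and GARS with 0.52, from 11.49 to 10.97. Among mitochondrial members MARS2 (0.26), LARS2 (0.18) and CARS2 (0.15) had the widest ranges, and AARS2 (0.05) and NARS2 (0.05) the narrowest. The narrowest cytosolic ranges were those of FARSA (0.11) and AIMP1 (0.12). Number 1 was above the mean of numbers 2 to 4 in 20 of 23 cytosolic members, and QARS, AIMP1 and DARS went the other way. In QARS number 1 was at 11.68 and below the means of numbers 2 (11.85), 3 (11.89) and 4 (11.85). The difference of number 1 from the mean of numbers 2 to 4 was -0.18 in QARS, -0.10 in AIMP1 and -0.09 in DARS.

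**Figure D4:**
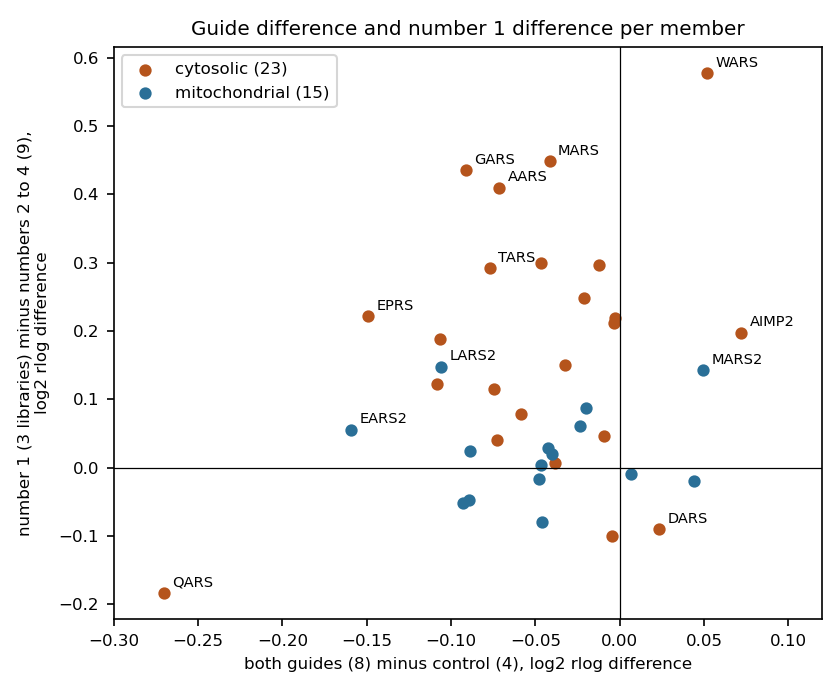
Each member's difference between guide and control libraries (x, log2) against its difference between the 3 libraries numbered 1 and the 9 numbered 2 to 4 (y, log2), cytosolic in orange and mitochondrial in blue. WARS lies highest at 0.58 on the y axis, and QARS lies lowest and furthest to the left at -0.27 and -0.18.

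As synthetase genes are known targets of the amino acid response, the windows at the RefSeq starts were searched on both strands for TGATGNAA, the core of the element bound by C/EBP and ATF factors in that response. It was found in 5 of 19 cytosolic windows (AARS, GARS, IARS, MARS and NARS), in 1 of 13 mitochondrial windows (YARS2) and in 3.62% of all windows. All 5 of these cytosolic genes were among the 12 with every library of number 1 above the rest, of which 10 had a window, and 0 of the other 9 cytosolic windows held it. Those 12 were picked from these same values, so the overlap is a description and not a test. Whether the amino acid response has a part in the differences between numbers was not tested. The match in NARS began 15 bases after the start and is not shown. The other sites are given on the strand of the gene with the match in capitals, as its reverse complement in all but YARS2.
AARS: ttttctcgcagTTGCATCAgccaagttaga
GARS: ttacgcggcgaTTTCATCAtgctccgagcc
IARS: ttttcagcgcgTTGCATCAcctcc
MARS: gccggttccggTTGCATCA
YARS2: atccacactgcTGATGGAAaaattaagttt
These stretches lie at chr16:70289675-70289704 (minus), chr7:30594834-30594863 (plus), chr9:92293698-92293721 (minus), chr12:57488053-57488071 (plus) and chr12:32756076-32756105 (minus) in GRCh38.p14. GENCODE 29 annotates those of GARS, IARS and MARS as untranslated exon of the same gene and that of AARS as exon of DDX19B on the other strand, and has no gene at that of YARS2. The palindrome CACGTG (E-box) was present in 2 of 19 cytosolic and 2 of 13 mitochondrial windows and in 7.26% of all windows. The palindromic motif of nuclear respiratory factor NRF1 was in 4 of 19 and 3 of 13, and in 5.78% of all windows. No match bears on whether a factor binds there.

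Other genes of the pathway were taken from lists with earlier results of these data known. None of the 9 further charging genes passed in limma for both guides with or without the block. These included the mitochondrial synthetase TARS2 (0.05) and the amidotransferase subunits QRSL1 (-0.09), GATB (0.07) and GATC (-0.02). At an unadjusted p under 0.05 there were 0 without and 1 with the block, which was lower, against 3.92% and 10.7% of all genes lower. Of the eEF1 complex, which delivers charged tRNA to the ribosome, 3 of 4 genes were tested and 1 fell with the block, against 2.87% of all genes. This was EEF1B2, the nucleotide exchange subunit beta of the complex (log2 fold change -0.29, adjusted p = 0.209 in limma, 0.00318 with the block). EEF1A1, the tRNA-carrying subunit of the complex, was at -0.07.

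Among 7 amino acid transporters 3 fell with the block, against 2.87% of all genes, and 0 without it (0 of 7 at an unadjusted p under 0.05 without the block). These were SLC7A5, the light chain of the large neutral amino acid transporter (-0.23, adjusted p = 0.00266 in limma with the block), SLC7A11, the cystine importer (-0.25, 0.0290), and SLC7A1, the cationic amino acid transporter (-0.16, 0.0379). All 7 had negative values. Of 10 genes of the integrated stress response, the pathway through which uncharged tRNA is sensed, 1 fell with the block, against 2.87% of all genes. This was PSAT1, an enzyme of serine synthesis (-0.19, adjusted p = 0.0119 in limma with the block). The main factor of the response, ATF4, was at -0.04 and ASNS at 0.03. The replicate number separated 7 of 7 transporters and 7 of 10 stress response genes, against 51.8% of all genes. It did not separate ATF4 (adjusted p = 0.0704 in the limma F-test), ASNS (0.197) or TRIB3 (0.594). All 3 libraries of number 1 lay above the rest in 3 of 7 transporters (SLC7A5, SLC3A2 and SLC1A5), against 7.29% of all genes. The same was seen in 4 of 10 stress response genes (CHAC1, PSAT1, PHGDH and ATF5) and in the 12 cytosolic synthetases.

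Some myeloid markers moved in the same comparison. With the block 2 of 8 markers tested rose, CSF1R (0.25, adjusted p = 0.0439 in limma) and ITGAM (0.24, 0.0148). MPO was the 1 that fell (-0.42, 2.63e-05). Over all genes 5.4% passed with the block in either direction. Without the block 0 of 8 markers passed. The sum of the 9 myeloid rlog values ranged from 81.0 to 81.9 in control, 81.0 to 82.4 in sgRNA1 and 81.9 to 82.6 in sgRNA2 libraries, and that of the 9 markers of other lineages from 7.44 to 7.86, 7.44 to 8.05 and 7.37 to 7.72. Their part in the values of QARS, EARS2 and EPRS was not tested.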

How the data were processed

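RNA was read as 37 bp paired ends from poly(A)-selected libraries of 3 groups with 4 libraries each. Per the labels, GRCh38 was the genome, and the submitters' processing notes name the aligner STAR 2.7.5a, the counter HTSeq 0.6.1pl and DESeq2 beside bcl2fastq 2.20.0.422, SAMtools and Picard 2.9.4. Settings and annotation release are not given in the sources used here. The authors deposited log2 values made by the regularised log transformation (rlog) of DESeq2 from read counts, normalised between libraries and shrunken most for weakly covered genes, after removal of duplicate reads according to the table's name. Their own fold changes with adjusted p-values, and values scaled per gene, were deposited too and were not used. Counts and depth were not analysed here, so no interval for counting error is given and precision rests on the spread between libraries.

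Genes had to average an rlog of 4 or more and to vary, which left 10982 of 19755. Two-sided tests were run in limma 3.58.1 under R 4.3.3 (linear models, empirical Bayes moderation with an intensity trend), and p-values were adjusted by Benjamini-Hochberg over these genes at a level of 0.05. Both guides against control used a 2-level model, and each guide, and the guides against each other, a model with 3 groups. The fits were also run on simulated data with known changes, and no power or rate of false calls is given from these runs. Libraries with the same number deviated together from their group means in 12 of 12 pairs (r from 0.38 to 0.78 across genes, which are not independent replicates), against -0.74 to 0.75 in 36 pairs with different numbers. SgRNA2 library 3 had r = 0.38 with control library 3 and 0.75 with control library 4. The pairing comes from the numbers in the titles and from this check, as no label explains a number, and the blocked fit is given wherever it changed a call. A log2 fold change or a range is given for members past the threshold in a comparison of guides with control. The same holds for the 3 highest and 3 lowest log2 fold changes in each compartment. It also holds for the 3 widest and 2 narrowest ranges over replicate numbers in each. Among members, values of each library are given for QARS, EARS2, EPRS, HARS and WARS. The members, the gene lists and this rule were chosen with earlier results of these data known. Levels per kilobase used merged exons of GENCODE 29 (GRCh38), in which all 38 members were found, 33 with the same identifier version. Promoter windows were those of RefSeq (GRCh38.p14). A few genes of the marker and pathway lists are counted in the totals but not reported here by name. Alternatives covered the block, 2 filters on low values, quantile and median scaling, the variance trend, leaving out libraries, and libraries 1 and 2 or 3 and 4 alone. Tables and figures used Python 3.11.15, pandas 2.3.3, numpy 2.4.6 and matplotlib 3.10.9.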

Additional observations from a re-analysis of the deposited data

Results flagged for a closer look

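In 4 of 114 groups of 4 libraries, 3 for each of the 38 members, 1 library lay apart from the others by more than Dixon's 95% limit, where chance gives about 1 in 20 groups. AARS, the cytosolic alanyl-tRNA synthetase, had an rlog value of 12.24 in control library 1, and the nearest control library was at 11.82. SARS, the seryl enzyme, was at 9.84 in sgRNA2 library 1 against 9.71 in the nearest library. CARS2 was at 9.85 in sgRNA2 library 2 against 9.70, and FARS2, the mitochondrial phenylalanyl enzyme, at 7.88 in sgRNA1 library 2 against 7.74. The share flagged was below that given by chance. In AARS and SARS number 1, and in CARS2 number 2, was the highest library of each group. In FARS2 this was not so, as sgRNA2 library 2 was at 7.69.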

How the results depend on the processing

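With the replicate block the count of members that passed went from 0 to 2 for both guides (QARS and EARS2), to 1 for sgRNA1 (QARS) and to 3 for sgRNA2 (QARS, EARS2 and EPRS). With the block and libraries or numbers left out it ranged from 1 to 4 for both guides, from 1 to 3 for sgRNA1 and from 0 to 3 for sgRNA2, with HARS or IARS called in some of these fits. Without the block it was 0 in each of the 12 fits that left out 1 library. In libraries 3 and 4 alone it was 1 for both guides and 1 for sgRNA1 without the block, and 1, 1 and 3 for both guides, sgRNA1 and sgRNA2 with it. In libraries 1 and 2 alone with the block it was 2 and 1 for both guides and sgRNA1. Filters, scaling and the variance trend left these counts at 0, the interaction at 0, and the count of members that differ by number at 22 to 23. The block changed no call between the guides. Without the block the cytosolic median ranged from -0.08 to 0.01 when 1 library was left out, and the mitochondrial median from -0.06 to -0.03. With the block and libraries or numbers left out they ranged from -0.07 to -0.03 and from -0.06 to -0.03, respectively.

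Members near 0 that turned sign did not pass in limma. With quantile scaling AIMP1 was at 0.011, FARSA at 0.021 and PARS2 at -0.0041. In libraries 1 and 2 alone, with or without the block, MARS was at 0.0093, DARS at -0.054, FARSA at 0.048 and PARS2 at -0.015, and in libraries 3 and 4 alone AIMP1 was at 0.056. With 1 library left out and no block, values ranged from -0.023 to 0.015 for AIMP1, -0.044 to 0.026 for FARSA, -0.017 to 0.036 for PARS2, -0.043 to 0.20 for WARS, -0.11 to 0.084 for MARS, -0.14 to 0.031 for GARS and -0.0046 to 0.049 for DARS. With the block and libraries or numbers left out, AIMP1 was at 0.025 without control library 1 or number 1, 0.0061 without control library 2 or number 2 and 0.0074 without sgRNA1 library 1. FARSA was at 0.049 without control library 4 or number 4 and 0.0060 without sgRNA1 library 4, and DARS was at -0.022 without control library 4 or number 4. PARS2 was at -0.031 without control library 3 or number 3, -0.019 when sgRNA1 library 3 was left out, and -0.013 and -0.0077 for sgRNA2 libraries 2 and 4. WARS, MARS and GARS kept their sign in each of the 16 fits with the block and libraries or numbers left out. The cause of the changes of sign was not tested. Unknown depth limits SARS2 and PARS2 most, since rlog shrinks low values.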
